A study of Mus musculus with 12 samples.

Results

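The genes described here are the 10 of MHC class I antigen processing that were chosen by name from the deposited tables, H2-K1, H2-D1, B2m, Tap1, Tap2, Tapbp, Psmb8, Psmb9, Psmb10 and Nlrc5. They are 10 of the 16699 genes found in both tables. All 10 were listed among the 17544 genes of unstimulated cells and the 17874 genes of LPS-stimulated cells, and all 10 passed the filter on low counts in every comparison.

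MHC class I molecules display short peptides from the cytosol on the cell surface, where CD8+ T cells inspect them. Proteasomes cut the proteins, with the inducible subunits Psmb8, Psmb9 and Psmb10 taking the place of the constitutive catalytic subunits Psmb5, Psmb6 and Psmb7. The transporter made of Tap1 and Tap2 carries the peptides into the endoplasmic reticulum, where tapasin, the product of Tapbp, holds the empty molecule at the transporter. The molecule itself is a heavy chain, such as H2-K1 or H2-D1, bound to the light chain B2m. Nlrc5 is the transactivator that acts on the promoters of these genes, and interferons induce the pathway, in part through Irf1.

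RNA was sequenced from J774A.1 cells, a mouse macrophage line of BALB/c origin. WT cells had received a Cas9-GFP vector without a guide RNA, and ACAT1 KO cells the same vector with a guide against Acat1, a mitochondrial acetyl-CoA acetyltransferase. Clonal lines were grown from sorted cells, and the study used 3 lines per genotype. Each genotype was either left untreated or given LPS, a bacterial ligand of TLR4, at 100 ng/ml for 2 hours, which makes 4 groups of 3 libraries. The paper describes the lines as clonal, but whether the 3 lines of a genotype arose independently of each other is not stated. A difference between genotypes is thus a difference between 3 lines and 3 lines. The question of the genotype comparison is what loss of ACAT1 does to gene expression in each state, and that of the LPS comparison how each genotype responds.

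Total counts ranged from 56948593 to 167280149 per library. All 10 macrophage markers were listed, and of 10 markers of other cell types only Pecam1 was listed in both tables, at no more than 0.720 CPM (counts scaled to a common library size with TMM factors) in any library. Acat1 stood at 80.8 to 108 CPM in unstimulated WT and 25.5 to 28.9 CPM in unstimulated ACAT1 KO libraries, and at 65.0 to 95.4 and 18.5 to 19.9 CPM after LPS. It was lower in ACAT1 KO cells in both states, by 1.87 (standard error 0.124) on the log2 scale without stimulation and by 2.08 (standard error 0.130) after LPS. The unstimulated libraries of WT lines 1 and 2 and of ACAT1 KO line 2 stood apart. Noncoding genes lying wholly opposite the exons of another gene took 0.0165%, 0.0213% and 0.0242% of their counts, where no other library exceeded 0.00445%. Of the 10 genes, Tap2, Psmb8, Tapbp and Nlrc5 share exonic bases with noncoding genes of the other strand. In these 3 libraries the counts of Gm20496, which overlaps exons of Tap2 and Psmb8 on the other strand, came to between 6.77% and 10.6% of the Tap2 counts, and in the other libraries to at most 0.352%. The counts of Gm19412, which overlaps Tapbp, came to between 2.30% and 3.39% of the Tapbp counts in these 3 libraries and to at most 0.759% elsewhere. The noncoding gene 9330175E14Rik overlaps only 0.918% of the exonic length of Nlrc5, and its counts were 5.54% to 9.61% of those of Nlrc5 without stimulation and 11.5% to 14.6% after LPS. Whether reads were counted by strand is not given in the sources used here, so the levels of these genes carry that uncertainty, and its part in their values was not tested.

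Of the 10 genes, 7 lie in the MHC on chromosome 17 of GRCm38. H2-K1 spans 33996017 to 34000347 on the minus strand and H2-D1 spans 35262730 to 35267499 on the plus strand. Between them lies a compact block of Psmb9 (34181987 to 34187764, minus strand), Tap1 (34187553 to 34197225), Psmb8 (34197721 to 34201454) and Tap2 (34203527 to 34216321), and Tapbp lies near H2-K1 at 33915899 to 33929292. B2m lies on chromosome 2 at 122147686 to 122153083, and Psmb10 (105935735 to 105938444) and Nlrc5 (94434356 to 94527272) lie on chromosome 8. Psmb9 and Tap1 run in opposite directions and overlap at their starts, and their shared exonic bases are 5.79% of the exonic length of Psmb9 and 3.87% of that of Tap1. H2-K1 and H2-D1 belong to a family of closely similar and highly variable genes. J774A.1 carries BALB/c alleles and the reference carries those of C57BL/6, so how reads were shared among family members is uncertain and was not tested.

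Promoter windows from RefSeq, 250 bases before to 50 after a start site on GRCm38.p6, were found for 8 of the 10 genes. They are shown for the heavy chains, the light chain and Tap1 because they allow the spacing of these boxes to be compared across the chains and the transporter. The promoters of classical class I genes carry an X box, which resembles a cAMP response element, and a CCAAT Y box, and the assembly on these boxes recruits Nlrc5. Capitals mark matches on either strand to TGACG (part of the cAMP response element), CCAAT (the Y box), the core of the interferon-stimulated response element (GAAA, any 2 bases, GAAA) and TTCNNNGAA (the gamma-interferon-activated site, GAS), read 5′ to 3′ on the strand of the gene. The windows of H2-K1 (chr17:34000298-34000597, minus strand), H2-D1 (chr17:35262844-35263143, plus strand), B2m (chr2:122147437-122147736, plus strand) and Tap1 (chr17:34187306-34187605, plus strand) are:
H2-K1: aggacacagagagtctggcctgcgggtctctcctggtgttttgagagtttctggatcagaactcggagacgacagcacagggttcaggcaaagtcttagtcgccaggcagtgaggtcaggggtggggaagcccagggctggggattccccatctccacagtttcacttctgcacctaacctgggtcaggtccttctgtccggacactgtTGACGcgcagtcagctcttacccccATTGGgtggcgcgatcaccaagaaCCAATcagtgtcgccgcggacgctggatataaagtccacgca
H2-D1: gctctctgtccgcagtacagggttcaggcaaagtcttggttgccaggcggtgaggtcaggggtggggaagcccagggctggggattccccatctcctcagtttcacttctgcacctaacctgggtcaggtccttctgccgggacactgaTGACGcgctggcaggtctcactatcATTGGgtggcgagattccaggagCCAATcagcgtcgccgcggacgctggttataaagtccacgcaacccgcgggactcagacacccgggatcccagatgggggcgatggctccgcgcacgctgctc
B2m: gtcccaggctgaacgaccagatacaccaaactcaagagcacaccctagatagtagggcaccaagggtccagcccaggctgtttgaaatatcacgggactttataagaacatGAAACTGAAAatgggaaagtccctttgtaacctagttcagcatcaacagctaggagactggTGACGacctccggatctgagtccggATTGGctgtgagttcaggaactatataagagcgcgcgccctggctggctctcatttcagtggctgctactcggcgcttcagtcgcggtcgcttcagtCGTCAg
Tap1: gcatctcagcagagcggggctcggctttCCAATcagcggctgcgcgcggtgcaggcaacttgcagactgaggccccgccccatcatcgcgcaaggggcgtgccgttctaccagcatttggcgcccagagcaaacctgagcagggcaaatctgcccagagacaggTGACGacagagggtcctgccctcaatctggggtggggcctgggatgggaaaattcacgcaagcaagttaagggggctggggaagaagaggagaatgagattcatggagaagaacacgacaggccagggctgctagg

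In H2-K1, H2-D1 and B2m a TGACG was followed by ATTGG, the other strand of CCAAT, after exactly 20 bases. Those pairs began at positions -41, -101 and -78 from the start site of the window shown. Only the first listed window of each gene was used, and H2-K1 had another window with this arrangement that is not shown. This arrangement was looked for after the windows had been read. On either strand it was found in 31 of 32851 windows (0.0944%), which belong to 27 genes, and H2-M3, another class I heavy chain gene, was among them. The matched letters singly are common. TGACG was in the windows of 5 of the 8 genes and in 20.8% of all windows, and CCAAT in 6 of the 8 and in 37.4% of all. The interferon-stimulated response element core was found in the window of B2m alone, as GAAACTGAAA from position -139, and in 3.44% of all windows. The GAS letters were found in the window of Psmb8 alone, from position -97, and in 8.30% of all. The window of Psmb9 shares 275 bases with that of Tap1 on the opposite strand, so the TGACG and CCAAT of Tap1 are the same letters as those of Psmb9. The window of Tapbp held CCAAT letters only, and that of Psmb10 held none of the 4. Only these exact letters were searched, so a window without a match may still hold a variant of an element. A match is a description of the letters, and binding was not measured here.

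Levels between genes were compared as RPKM, that is CPM per kilobase of exonic length. That length merges the exons of all annotated transcripts of a gene, 5476 bases for Tap1 and 3781 for Tap2. The order of genes and the size of ratios between genes rest on these lengths. In unstimulated WT cells B2m was highest at 870 ± 110 RPKM (SD, n = 3), then H2-D1 at 353 ± 8.65 and H2-K1 at 194 ± 11.4 RPKM. Psmb10, Psmb8 and Tapbp came next at 43.3 ± 4.65, 38.8 ± 5.42 and 38.5 ± 4.07 RPKM, and the libraries of these neighbours overlapped. Tap2 (23.2 ± 2.68), Psmb9 (18.1 ± 1.41), Tap1 (11.1 ± 1.33) and Nlrc5 (3.99 ± 0.596) followed in that order without overlap of neighbours. The transcripts of Tap1 and Tap2 thus stood at unequal RPKM without stimulation. After LPS the order changed. In WT cells Tapbp rose to the fourth place at 136 ± 10.8 RPKM, and Tap1, at 44.3 ± 9.82 RPKM, lay above Tap2 at 38.4 ± 3.52, although the libraries of Tap1 and Tap2 overlapped. Nlrc5 stayed lowest at 12.8 ± 2.69 RPKM. The ACAT1 KO cells gave the same order of the 10 genes in each state.

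**Figure D1:**
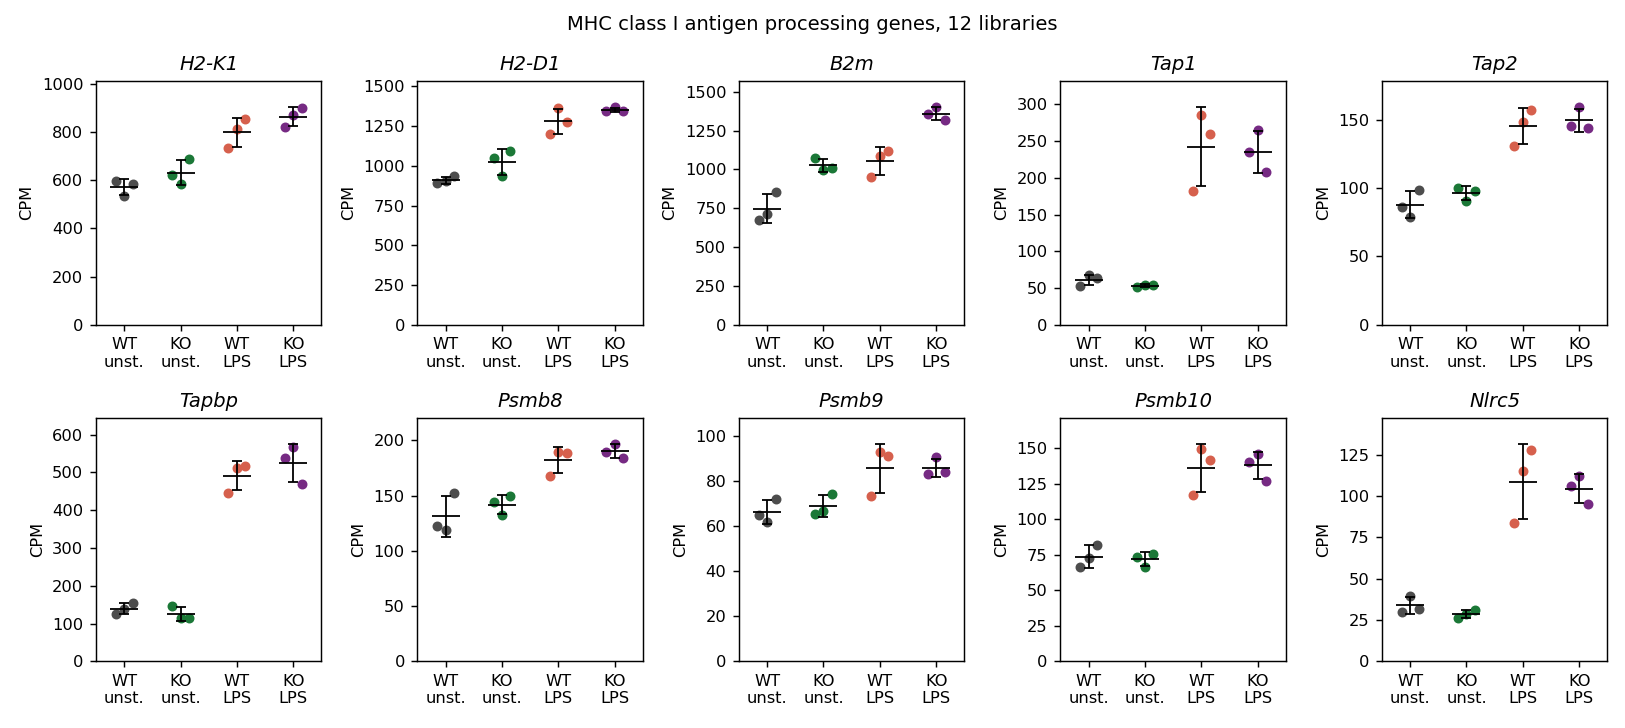
CPM of each of the 10 genes (vertical axes, from 0) in the 12 libraries, by group (horizontal axes). Points are libraries in the order of their replicate number, horizontal lines are group means and bars are the SD (n = 3). In every panel the 3 LPS points of a genotype lie above its 3 unstimulated points, and only in the panel of B2m do the ACAT1 KO points lie above the WT points in both states.

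All 10 genes rose with LPS in both genotypes, from 1.29-fold for Psmb9 to 3.97-fold for Tap1 in WT cells and from 1.25-fold for Psmb9 to 4.44-fold for Tap1 in ACAT1 KO cells. All 10 passed an adjusted p of 0.05 as higher in both genotypes, where 29.3% of all genes tested did in WT and 29.5% in ACAT1 KO cells. Their median log2 fold change was 0.61 in WT and 0.54 in ACAT1 KO cells, beside -0.02 and -0.03 over all genes tested. For each gene the 3 LPS libraries lay above the 3 unstimulated libraries in both genotypes, which held for 31.4% of all genes in WT and 33.2% in ACAT1 KO cells. The test was edgeR's quasi-likelihood test over all 12 libraries with Benjamini-Hochberg adjustment, two-sided.

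The strongest increases were in Tap1, Tapbp and Nlrc5. Tap1, the first subunit of the peptide transporter, was counted at 52.9, 67.0 and 63.2 CPM in unstimulated WT cells and at 182, 286 and 260 CPM after LPS. The ACAT1 KO libraries held 50.9, 54.6 and 53.6 CPM without stimulation and 235, 265 and 207 CPM after LPS. The lowest LPS library lay far above the highest unstimulated one in both genotypes. The log2 fold changes of Tap1 were 1.99 (standard error 0.154, adjusted p = 4.47e-07) in WT and 2.15 (standard error 0.155, adjusted p = 2.11e-07) in ACAT1 KO cells. Tapbp, which encodes tapasin, rose from 126, 138 and 155 CPM to 446, 513 and 516 CPM in WT cells. In the ACAT1 KO lines Tapbp rose from 147, 116 and 114 CPM to 538, 568 and 470 CPM. Its log2 fold changes were 1.82 (standard error 0.120) and 2.06 (standard error 0.120). Nlrc5 rose from 30.1, 39.7 and 32.0 CPM to 83.5, 115 and 128 CPM in WT cells. In ACAT1 KO cells Nlrc5 went from 26.5, 28.9 and 31.3 CPM to 106, 112 and 95.0 CPM. Its log2 fold changes were 1.68 (standard error 0.151) and 1.85 (standard error 0.151). For each of these genes the WT line with number 1 had the lowest LPS level among the WT lines.

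Psmb10 and Tap2 rose by an intermediate amount. Psmb10, which encodes an inducible proteasome subunit with trypsin-like activity, was counted at 66.5, 72.8 and 82.2 CPM in unstimulated WT cells and at 117, 150 and 142 CPM after LPS. In ACAT1 KO cells it went from 73.7, 66.6 and 75.7 CPM to 141, 146 and 127 CPM. Its log2 fold changes were 0.88 (standard error 0.104) in WT and 0.94 (standard error 0.104) in ACAT1 KO cells. Tap2, the second subunit of the transporter, rose from 86.1, 78.8 and 98.8 CPM to 131, 148 and 157 CPM in WT cells. ACAT1 KO libraries went from 100.2, 90.3 and 98.2 CPM to 146, 159 and 144 CPM. Its log2 fold changes were 0.72 (standard error 0.0919) and 0.64 (standard error 0.0917).

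The heavy chains, the light chain and the other inducible proteasome subunits rose least. WT cells held 596, 533 and 584 CPM of H2-K1 without stimulation and 732, 811 and 853 CPM after LPS. ACAT1 KO cells held 621, 585 and 689 CPM of it and then 822, 872 and 899 CPM. For H2-D1 the WT libraries went from 891, 903 and 935 CPM to 1201, 1362 and 1277 CPM, and the ACAT1 KO libraries from 1048, 935 and 1094 CPM to 1345, 1370 and 1344 CPM. The states did not overlap for either chain. The log2 fold changes lay between 0.40 (H2-D1, ACAT1 KO) and 0.49 (H2-D1, WT), with standard errors of 0.0695 to 0.0809. B2m rose from 676, 714 and 855 CPM to 954, 1089 and 1118 CPM in WT cells. Among ACAT1 KO libraries it rose from 1071, 995 and 1012 CPM to 1357, 1401 and 1320 CPM. Its log2 fold changes of 0.49 (standard error 0.0903) and 0.41 (standard error 0.0902) were close to those of the heavy chains. Psmb8, with log2 fold changes of 0.47 (standard error 0.0924) and 0.42 (standard error 0.0923), went from 119 to 152 CPM over unstimulated WT libraries to 168 to 189 CPM after LPS. Psmb9 changed least, by 0.37 (standard error 0.0942, adjusted p = 0.00505) in WT and 0.32 (standard error 0.0941, adjusted p = 0.0114) in ACAT1 KO cells. With upper-quartile normalization, which put the median of all genes at -0.23 in WT and -0.17 in ACAT1 KO cells and called 3628 genes higher and 6681 lower in WT (4850 and 4638 with TMM) and 3921 higher and 6560 lower in ACAT1 KO cells (4871 and 5166 with TMM), Psmb9 no longer passed, with log2 fold changes of 0.16 (adjusted p = 0.138) and 0.17 (adjusted p = 0.122). Without the 3 libraries that stood apart, B2m (0.27, adjusted p = 0.0540), Psmb8 (0.23, adjusted p = 0.0596) and Psmb9 (0.23, adjusted p = 0.207) no longer passed in WT cells, where 1 unstimulated WT library was then left, while all 10 still passed in ACAT1 KO cells.

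**Figure D2:**
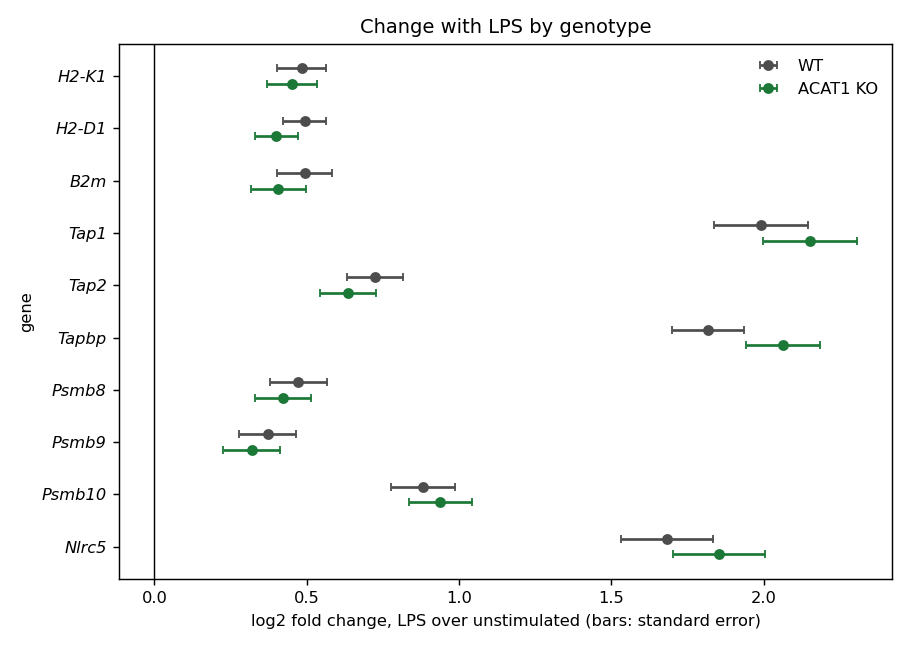
Log2 fold change of LPS over unstimulated cells (horizontal axis) for each of the 10 genes (vertical axis), in WT and in ACAT1 KO cells. Points are estimates over all 12 libraries and bars are standard errors. Tap1, Tapbp and Nlrc5 lie between 1.68 and 2.15, and Psmb9 lies lowest in both genotypes.

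Neighbours on chromosome 17 moved by different amounts with LPS. Tap1 and Psmb9, whose starts lie 226 bases apart in the RefSeq windows, were set against each other as a ratio of RPKM within each library. The ratio of Tap1 to Psmb9 was 0.543, 0.728 and 0.589 in unstimulated WT cells and 1.67, 2.06 and 1.91 after LPS. The unstimulated ACAT1 KO libraries gave 0.521, 0.547 and 0.482, and those given LPS 1.89, 1.96 and 1.65. LPS thus moved the ratio 3.04-fold in WT and 3.54-fold in ACAT1 KO cells, with no overlap of libraries in either. The ratio of the other adjacent pair, Tap2 to Psmb8, moved from 0.600 ± 0.0265 to 0.712 ± 0.0256 (SD, n = 3) in WT cells, which is 1.19-fold, and 1.16-fold in ACAT1 KO cells, again with no overlap. These ratios were chosen after the levels had been seen. Exact permutation tests of 3 libraries against 3, two-sided, gave p = 0.1 for all 4 LPS comparisons, the smallest such a test can give, and 0.3 after Benjamini-Hochberg adjustment over 24 tests of 6 ratios.

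The inducible proteasome subunits were set against the constitutive subunits they replace in the same way. Psmb10 to Psmb7 rose from 0.772 ± 0.0923 to 1.30 ± 0.190 (SD, n = 3) in WT libraries and, among ACAT1 KO lines, from 0.716 ± 0.00761 to 1.28 ± 0.113, without overlap of the libraries (exact permutation p = 0.1 for both, 0.3 adjusted). Psmb8 to Psmb5 was 0.524 ± 0.0821 and 0.595 ± 0.0616 in WT cells, and 0.503 ± 0.0434 and 0.584 ± 0.0489 in ACAT1 KO cells, with overlapping libraries in both (exact permutation p = 0.2 for both, 0.436 adjusted). Psmb9 to Psmb6 was 0.155 ± 0.0135 and 0.143 ± 0.0286 in WT cells, and 0.138 ± 0.0133 and 0.129 ± 0.0101 in ACAT1 KO cells, also overlapping (exact permutation p = 0.6 and 0.4). Among the transcripts of the inducible proteasome, Psmb10 was the only one of the 3 whose ratio to its constitutive counterpart separated the states in both genotypes.

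**Figure D3:**
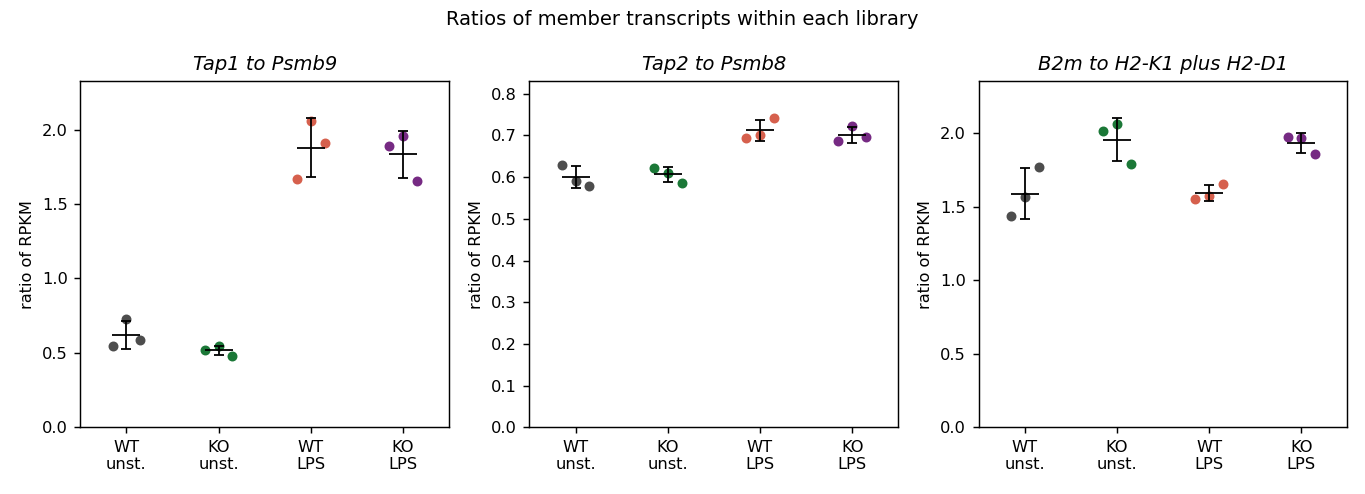
Ratios of RPKM within each library (vertical axes, from 0) for Tap1 to Psmb9, Tap2 to Psmb8, and B2m to the sum of H2-K1 and H2-D1, by group (horizontal axes). Points are libraries, lines are means and bars are the SD (n = 3). The ratio of Tap1 to Psmb9 separates the states, with all LPS libraries at 1.65 or above and all unstimulated libraries at 0.728 or below, and the ratio of B2m to the heavy chains separates the genotypes.

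Other genes of the pathway were read from lists. Of all genes tested, 29.3% were called higher with LPS in WT and 29.5% in ACAT1 KO cells. Of 13 loading and trimming partners, 8 rose and none fell in WT cells, and 7 rose and none fell in ACAT1 KO cells, with median log2 fold changes of 0.28 and 0.35. Tapbpl, a relative of tapasin that edits peptides, rose by 1.19 (standard error 0.105) in WT and 1.14 (standard error 0.105) in ACAT1 KO cells on the log2 scale. The proteasome activator subunit Psme2 rose by 0.78 (standard error 0.0756) and 0.92 (standard error 0.0757), and the chaperone Hspa5 by 0.78 and 0.85. Of 15 constitutive proteasome genes, 9 rose and none fell in WT cells, while 6 rose and 1 fell in ACAT1 KO cells, with medians of 0.23 and 0.18. The 6 of 15 in ACAT1 KO cells were not far above the 29.5% of all genes. Psma5 rose by 0.67 and 0.74 and Psmb2 by 0.54 and 0.51, both more than Psmb9. The lists were written with earlier results of these data known.

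Of 15 tested factors that act on class I promoters, 11 rose and 2 fell with LPS in WT cells, and 10 rose and 2 fell in ACAT1 KO cells, beside the 29.3% and 29.5% of all genes that rose. Irf8 and Nfyb were the 2 that fell, and Irf2 (0.04 in both genotypes) and Rfxank (-0.02 and -0.22) did not pass. Irf1, which binds interferon-stimulated response elements, was counted at 29.4, 38.2 and 45.4 CPM in unstimulated WT cells and at 510, 686 and 735 CPM after LPS, so that it rose by 4.09 (standard error 0.193) on the log2 scale. In ACAT1 KO cells Irf1 rose by 4.69 (standard error 0.198). Nfkb1, an NF-kB subunit, rose by 2.25 and 2.32 and Rela by 1.62 and 1.57. Irf8, a myeloid member of the interferon regulatory factors, fell in both genotypes, from 164, 154 and 160 CPM to 55.4, 67.1 and 67.6 CPM in WT libraries and, in ACAT1 KO libraries, from 227, 232 and 239 CPM to 46.1, 39.5 and 33.6 CPM.

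Without stimulation none of the 10 genes differed between ACAT1 KO and WT cells at an adjusted p of 0.05, where 1.91% of all genes tested did. At an unadjusted p of 0.05, which 19.7% of all genes passed, only B2m did. B2m was counted at 676, 714 and 855 CPM in WT and at 1071, 995 and 1012 CPM in ACAT1 KO cells, so every ACAT1 KO library lay above every WT library. The fitted log2 difference was 0.46 (standard error 0.101), and edgeR's quasi-likelihood test put its adjusted p at 0.0748. The same gene passed in a single fit of all 12 libraries (adjusted p = 0.0123), with a term for the 3 libraries that stood apart (0.0398), with robust dispersion (0.0476), with DESeq2 (2.13e-04) and without WT replicate 3 (0.0305). B2m did not pass with the other normalizations, the other filters on low counts, limma-voom or the replicate block. Nor did it pass with any other replicate left out. Within the libraries that stood apart, ACAT1 KO exceeded WT by 0.54 (1 against 2 libraries), and within the others by 0.29 (2 against 1). Without those 3 libraries the fitted difference was 0.28 (adjusted p = 0.383). H2-D1 was also higher in every ACAT1 KO than in every WT library, by 0.18 (standard error 0.0775, adjusted p = 0.259), but the nearest libraries of the groups, at 934.9 and 934.5 CPM, were almost equal. B2m and H2-D1 were the 2 of 10 with all ACAT1 KO libraries above WT, which held for 13.1% of all genes tested. That share was counted with the unstimulated libraries scaled alone and the 2 genes with all 12 scaled together, so the near tie of H2-D1 may depend on the scaling.

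The remaining 8 genes lay between -0.22 and 0.15 on the log2 scale without stimulation, with standard errors of 0.0827 to 0.123 and adjusted p of 0.314 or above. The lowest were Nlrc5 at -0.22 (standard error 0.118) and Tap1 at -0.19 (standard error 0.0940). H2-K1, at 0.15 (standard error 0.0852), was the highest of these. The medians of the 10 genes and of all genes were 0.09 and 0.00. Psmb8 and Psmb9, at 0.12 and 0.07, had the opposite sign without the 3 libraries that stood apart, at -0.06 and -0.05.

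After LPS, 1 of the 10 genes, B2m, was higher in ACAT1 KO cells at an adjusted p of 0.05, where 5.93% of all genes tested were higher and 15.1% passed in either direction. B2m was counted at 954, 1089 and 1118 CPM in WT and at 1357, 1401 and 1320 CPM in ACAT1 KO cells, without overlap. Its log2 fold change was 0.39 (standard error 0.0749, adjusted p = 0.0153), a 1.31-fold difference. Leaving out ACAT1 KO replicate 1 gave an adjusted p of 0.0510 and leaving out ACAT1 KO replicate 2 gave 0.0624, with the direction kept. The other 9 genes lay between -0.04 and 0.13 with standard errors of 0.0626 to 0.159, and none had an unadjusted p under 0.05, where 31.3% of all genes did. Tap1, at -0.02 (standard error 0.159), and Nlrc5, at -0.04 (standard error 0.144), were the least certain, and Psmb8, at 0.08 (standard error 0.0626), the most. The sign of Tap1 turned with upper-quartile normalization, to 0.01.

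**Figure D4:**
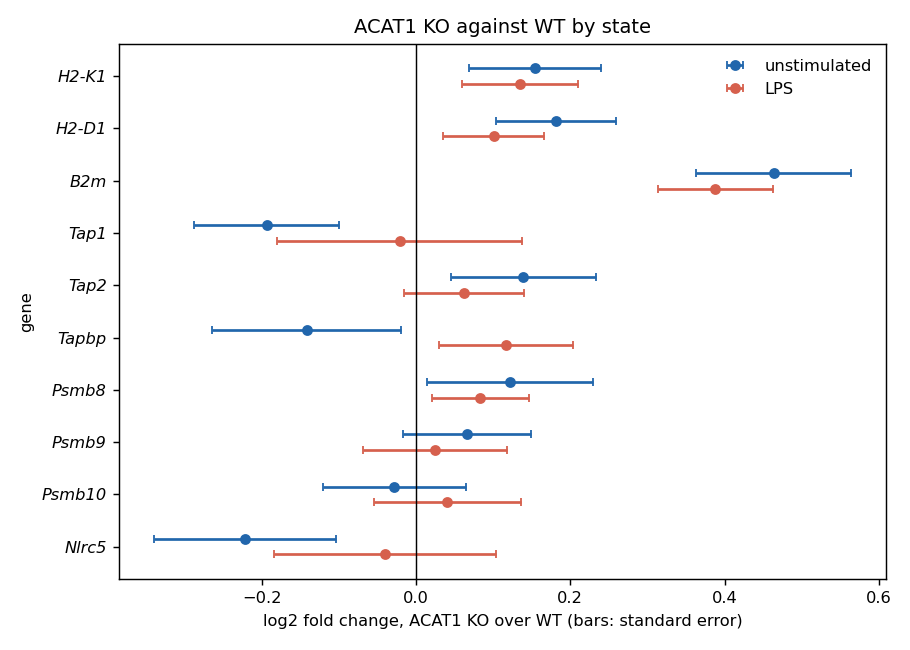
Log2 fold change of ACAT1 KO over WT cells (horizontal axis) for each of the 10 genes (vertical axis), without stimulation and after LPS. Points are estimates from the 6 libraries of a state and bars are standard errors. B2m lies at 0.46 and 0.39 and every other gene between -0.22 and 0.18.

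The light chain and the heavy chains were also set against each other. The ratio of B2m to the sum of H2-K1 and H2-D1, in RPKM, was 1.43, 1.56 and 1.77 in unstimulated WT cells and 2.02, 2.06 and 1.79 in ACAT1 KO cells. After LPS it was 1.55, 1.57 and 1.66 in WT and 1.97, 1.97 and 1.86 in ACAT1 KO cells. All ACAT1 KO libraries lay above all WT libraries in both states, 1.23-fold and 1.21-fold on average (exact permutation p = 0.1 for each, 0.3 adjusted). With LPS the ratio moved by less than the spread between libraries of a group, 1.01-fold in WT and 0.990-fold in ACAT1 KO cells (exact permutation p = 0.9 and 0.8).

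B2m lies on a stretch of chromosome 2 where most genes were higher in ACAT1 KO cells. Of 709 genes tested from 90 Mb to the end of the chromosome, 588 had a log2 fold change above 0 without stimulation, 67 were called higher and 2 lower, and the median was 0.29, beside 0.00 over all genes. After LPS 614 of 712 were above 0, 260 were called higher and 8 lower, and the median was 0.28. Genes with starts within 1 Mb of that of B2m had medians of 0.38 (31 genes) and 0.36 (30 genes), against 0.46 and 0.39 for B2m itself. The shift was present in each line. Over 714 genes of the stretch the median deviation from the WT mean was 0.29, 0.28 and 0.28 in the 3 ACAT1 KO libraries before LPS and 0.25, 0.28 and 0.25 after it. The limit at 90 Mb was known from earlier results of these data. Set against the median of this stretch in the same library, B2m stood at -0.11, -0.03 and 0.12 in unstimulated WT and at 0.23, 0.13 and 0.16 in unstimulated ACAT1 KO libraries. After LPS it stood at -0.13, 0.09 and 0.03 in WT and at 0.12, 0.13 and 0.08 in ACAT1 KO libraries. The genotypes did not overlap without stimulation, but the nearest libraries, at 0.12 in WT and 0.13 in ACAT1 KO cells, were almost equal. They overlapped after LPS, and the part of the stretch in the B2m difference was not tested further. On the chromosomes that hold the other 9 genes the medians were closer to 0, 0.04 and 0.03 on chromosome 17 and 0.02 and -0.01 on chromosome 8.

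**Figure D5:**
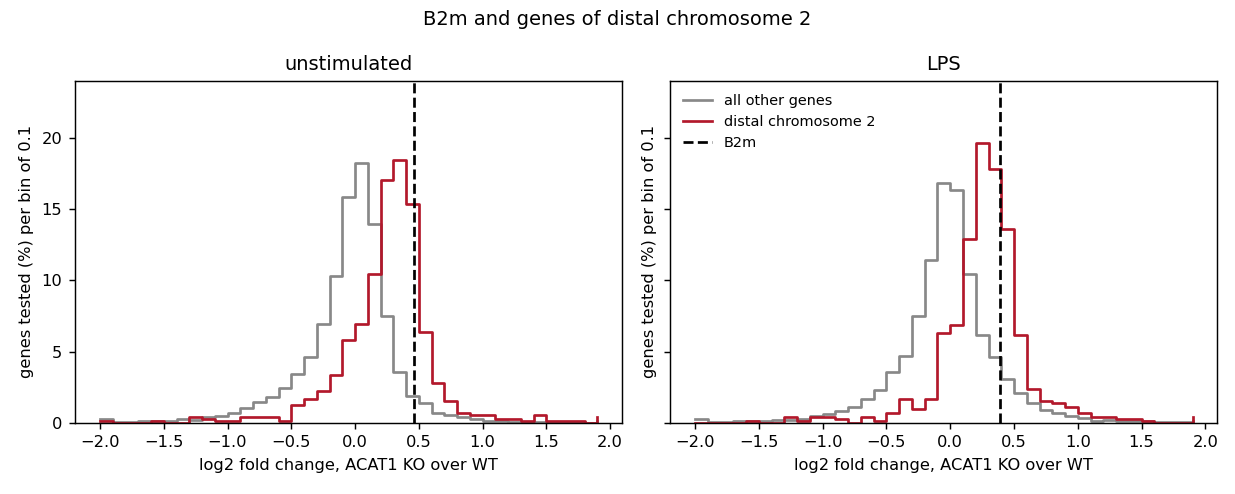
Distribution of the log2 fold change of ACAT1 KO over WT cells (horizontal axes) for genes of distal chromosome 2 and for all other genes, as a percent of genes tested per bin of 0.1 (vertical axes), without stimulation and after LPS. Values beyond 2 in either direction are counted in the end bins, and the dashed line marks B2m. The genes of distal chromosome 2 centre near 0.29 and 0.28, and B2m lies within their distribution in both states.

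Partners of the 10 genes that differed between genotypes were also placed on their chromosomes. After LPS, Pdia3, the thiol oxidoreductase of the loading complex, was higher in ACAT1 KO cells by 0.41 (standard error 0.0760, adjusted p = 0.0132). It lies on chromosome 2 at 121413775 to 121438687, beside B2m. Psma7, an alpha ring subunit of the proteasome, was higher by 0.29 (adjusted p = 0.00981) and lies at 180036374 to 180042433 of the same chromosome. Psma3 and Psma6, other alpha ring subunits, were lower, with log2 fold changes of -0.25 (adjusted p = 0.0214) and -0.26 (adjusted p = 0.0452), and both lie on chromosome 12, where the median of 584 genes was -0.28. Hspa5, on proximal chromosome 2, was higher by 0.24 (adjusted p = 0.0404). In total 2 of 13 loading partners were higher and none lower, and 1 of 15 constitutive proteasome genes was higher and 2 were lower. Of all genes tested after LPS, 15.1% passed in either direction. Without stimulation none of either list passed the adjusted threshold by edgeR. At an unadjusted p under 0.05 there were 1 of 13 and 4 of 15, where 19.7% of all genes passed.

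Of 15 promoter factors tested without stimulation, Irf8 was called higher and Stat2 lower in ACAT1 KO cells, where 1.91% of all genes were called. Stat2, a subunit of an interferon-activated transcription complex, stood at -1.15 on the log2 scale (standard error 0.156, adjusted p = 0.0344), and Irf1 stood at -0.51 (standard error 0.158, adjusted p = 0.147). Irf8 was higher in ACAT1 KO cells, by 0.55 (standard error 0.0579, adjusted p = 0.0175). After LPS Irf1 stood at 0.10 (standard error 0.148), and Irf8 was lower by -0.65 (standard error 0.121, adjusted p = 0.0129). The difference between the states was itself past the threshold for Irf8 (interaction -1.22, standard error 0.148, adjusted p = 0.0195) and not for Irf1 (0.60, adjusted p = 0.465).

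For none of the 10 genes did the response to LPS differ between genotypes at an adjusted p of 0.05 in the interaction test of edgeR, where 0.187% of all genes tested passed, and none had an unadjusted p under 0.05, where 8.92% did. DESeq2 and limma-voom also called none of the 10. The largest interaction was that of Tapbp, 0.25 (standard error 0.164, adjusted p = 0.769), whose LPS response was 1.82 in WT and 2.06 in ACAT1 KO cells. Next were Nlrc5 at 0.17 (standard error 0.208) and Tap1 at 0.16 (standard error 0.211). H2-D1, Tap2 and B2m stood at -0.09 each, and H2-K1, Psmb8, Psmb9 and Psmb10 lay between -0.05 and 0.06. With the line as a replicate block the number of genes called rose from 31 to 288, none of them among the 10, and the adjusted p of the 10 was 0.366 or above. With the block and a term for the 3 libraries that stood apart, 457 genes were called, and Tapbp had an adjusted p of 0.0726, the lowest of any alternative.

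The mean profile of the 10 genes over the 12 libraries, each gene standardized on the log2 CPM scale, ran from -1.19 in WT replicates 1 and 2 without stimulation to 1.16 in ACAT1 KO replicate 2 after LPS. WT replicate 1 had the lowest value after LPS, 0.319, where the other LPS libraries lay from 0.885 upward. Tap2 followed the profile most closely (Pearson r = 0.99) and B2m least (0.83). Of genes outside the 10, Wbp4, Noc4l, 4930453N24Rik, H2-Q4 and Caml were most like it, with r between 0.988 and 0.991. These correlations are over 12 libraries that fall into clusters by LPS, and share depth and batch, so they describe mainly the step between the states and carry no test.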

How the data were processed

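RNA-seq of 12 libraries was used, grouped by the genotype, treatment and number in their labels. Per the submitters' notes the authors used Trimmomatic 0.33, HISAT2, StringTie and GRCm38. What the authors deposited are tables of raw counts by gene, in whole numbers and with no normalization, 1 for each state, and the step that gave whole counts is not given in the sources used here. Their fold changes, scores, p-values and 12 columns of log values per library were not used. Repeated entries (59 and 57) were removed, and 17521 and 17849 genes matched the GENCODE annotation.

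The tests used edgeR 4.0.16 under R 4.3.3 (filterByExpr, TMM, quasi-likelihood, Benjamini-Hochberg adjusted p under 0.05 over all genes tested, 16440, 16483 and 16535 genes for unstimulated cells, LPS and all 12 libraries). Genotypes were compared within a state on 6 libraries, LPS effects and the interaction on 12. CPM and RPKM in the text come from a single TMM scaling of all 12 libraries. Libraries of a group differed by more than sampling noise (chi-square per degree of freedom 31.7 to 269), so the spread between libraries limits precision more than depth. Line, culture and library preparation cannot be told apart in this spread. The value of 269 was that of unstimulated WT libraries 1 and 3, of which only library 1 stood apart, and the highest among LPS pairs was 92.0.

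For LPS effects and the interaction, the replicate block paired states of a line by number, and the main tests did not pair them. Deviations from group means correlated at 0.139 to 0.454 for all 6 pairs over 11961 genes. Numbers of WT and ACAT1 KO lines pair nothing. The 10 genes, the gene lists and the limits were chosen with earlier results of these data known. Named genes are the 10, Acat1, Irf1, up to 5 genes with the smallest p per list and comparison, and the 5 most like the mean profile, and 1 further gene under this rule is not reported here. Alternatives were DESeq2 1.42.0, limma-voom, other normalizations and filters, robust dispersion, blocks, a batch term and libraries left out. The batch term marks the 3 libraries that stood apart, and no label names a batch. Leaving out the 3 libraries that stood apart, the ratios and the motif arrangement were added after seeing the data.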

Additional observations from a re-analysis of the deposited data

How the results depend on the processing

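The increase of the 10 genes with LPS kept its direction in all 220 values per genotype under other settings. Of these 216 in WT and 219 in ACAT1 KO cells stayed past the threshold, and the exceptions are the values given for B2m, Psmb8 and Psmb9 with LPS. Every library left out in turn kept all 10 called in both genotypes. Between genotypes without stimulation 314 genes were called, against 475 with at least 10 counts in every library, 1721 with DESeq2, 522 with robust dispersion, 1353 with all 12 libraries, 664 with the batch term and 66 without the 3 libraries that stood apart (7 to 522 with a replicate left out). Of the 10 genes, 1 (B2m) was called in place of 0 with DESeq2, robust dispersion, all 12 libraries and the batch term, and 0 to 1 with a replicate left out. After LPS 2481 genes were called, against 867 to 2245 with a replicate left out, and 0 to 1 of the 10. The interaction called 31 genes (8 higher, 23 lower), against 23 (10 higher, 13 lower) with upper-quartile normalization, 334 with DESeq2, 11 with limma-voom, 2 without the 3 libraries and 2 to 41 with a replicate left out.

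The replicate block by line number, which pairs the states of a line, gave 288 interaction genes, and 457 with the batch term, and changed no call of the 10. WT and ACAT1 KO lines with the same number share only a number (correlations of -0.412, 0.745 and 0.745 without stimulation and of 0.126, 0.173 and -0.108 after LPS). With that replicate block 151 genes were called without stimulation.

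Small differences changed sign. Without the 3 libraries Psmb8 and Psmb9 stood at -0.060 and -0.045 between unstimulated genotypes, and the interactions of B2m, Tap2, Psmb8 and Psmb9 at 0.12, 0.074, 0.16 and 0.082. With upper-quartile normalization Tap1 after LPS stood at 0.0086, and the interactions of H2-K1, Psmb8 and Psmb9 at 0.029, 0.0095 and 0.0068. The interaction of Psmb8 was 0.024 with the replicate block and batch term. With a replicate left out, Psmb10 ranged from -0.11 to 0.059 between unstimulated genotypes. After LPS, Tap1 ranged from -0.19 to 0.12, Tap2 from -0.0097 to 0.13, Psmb9 from -0.077 to 0.089, Psmb10 from -0.058 to 0.12 and Nlrc5 from -0.20 to 0.10. The interaction ranged from -0.091 to 0.035 for H2-K1, -0.19 to 0.017 for B2m, -0.0075 to 0.30 for Tap1, -0.17 to 0.036 for Psmb8, -0.15 to 0.0091 for Psmb9 and -0.041 to 0.16 for Psmb10. None of these values passed the threshold, and the cause was not tested.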

Other observations

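Of 14 other class I heavy chain genes tested, 9 rose and 1 fell with LPS in each genotype, beside the 29.3% and 29.5% of all genes that rose, with median log2 fold changes of 0.67 in WT and 0.68 in ACAT1 KO cells. H2-Q4 rose by 0.75 (standard error 0.0848) in WT and 0.67 (standard error 0.0847) in ACAT1 KO cells, and H2-Q7, another gene of the Q region, by 0.92 and 0.96. H2-T23, which encodes the Qa-1 molecule, rose by 0.96 (standard error 0.171) and 1.41 (standard error 0.172), and the interaction, 0.45 (standard error 0.239, adjusted p = 0.647), did not pass. The gene that fell was Mr1, which presents vitamin B metabolites, with log2 fold changes of -1.18 (standard error 0.0737) and -1.27 (standard error 0.0739). H2-M3, H2-T3 and Cd1d1 did not pass in either genotype, nor did H2-T24 in WT cells and H2-Q10 in ACAT1 KO cells. Between genotypes after LPS, H2-M3, which presents formylated peptides, was higher in ACAT1 KO cells by 0.29 (adjusted p = 0.0377), while Cd1d1, which presents lipids, was lower by -0.66 (adjusted p = 0.0101) and H2-Q10 by -0.52 (adjusted p = 0.0274). Many of the H2 genes are similar in sequence, and reads shared among them make the values of H2 genes uncertain.

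The class II chains H2-Aa, H2-Ab1 and H2-Eb1 were not listed in either table, and 8 of 11 genes of the pathway were tested. With LPS 1 rose and 3 fell in WT cells, and 1 rose and 5 fell in ACAT1 KO cells. Of all 16535 genes tested, 4850 rose and 4638 fell in WT, and 4871 rose and 5166 fell in ACAT1 KO cells. The gene that rose was the invariant chain Cd74, by 0.31 (standard error 0.0888) and 0.28 (standard error 0.0888), and H2-DMa, a chain of the peptide editor, fell by 0.50 and 0.44 on the log2 scale. Of the 10 macrophage markers, 3 rose and 3 fell with LPS in each genotype, near the shares of all genes, with medians of -0.02 and -0.05. Adgre1, Spi1 and Cd14 rose in both, Lyz2 and Fcgr3 fell in both, Mertk fell in WT and Fcgr1 in ACAT1 KO cells. Adgre1 (F4/80) rose by 1.09 in WT and 1.92 in ACAT1 KO cells, and its interaction passed (0.83, standard error 0.138, adjusted p = 0.0423). Of all genes tested, 1.91% were called between genotypes without stimulation and 15.1% after LPS. Without stimulation none of the markers was higher in ACAT1 KO cells and 2 were lower, the Fc receptor Fcgr1 (-0.69, adjusted p = 0.0124) and Adgre1 (-0.78, adjusted p = 0.0368). After LPS 3 were higher, Cd14 (0.40, adjusted p = 0.00736), Itgam (0.48, adjusted p = 0.0147) and Spi1 (0.26, adjusted p = 0.0240), and Fcgr1 was lower (-1.07, adjusted p = 0.00312). Spi1 lies at 91082390 to 91115756 of chromosome 2, within the stretch from 90 Mb, where the median after LPS was 0.28. The summed level of the 10 macrophage markers ranged from 9183 to 10205 CPM in unstimulated WT and from 10461 to 11893 CPM in unstimulated ACAT1 KO cells. Most of each sum was Lyz2, with means of 6117 CPM in WT and 6883 CPM in ACAT1 KO cells. Lyz2 itself was not called between these groups by edgeR (0.18, adjusted p = 0.306). After LPS the ranges overlapped, at 8972 to 9387 CPM in WT and 9368 to 10853 CPM in ACAT1 KO cells.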
